A study of Mus musculus with 2 samples.

Results

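The genes described here copy DNA and make its building blocks: 38 genes of the replication fork, of origin licensing, of S phase entry and of deoxynucleotide synthesis, listed by function, with no measured value in the rule, although earlier results of these data were known when the list was made. Of these, 36 had at least 1 probe on the array, and 34 were detected above the negative control beads (detection p under 0.01) in at least 1 sample, out of 8865 genes detected in all. No probe was matched to Gins1 or Gins2, and Pola1 and Prim1 were below the detection limit in both samples. The array's annotation listed 3 members under older names, Cdt1 as Ris2, Rfc1 as Recc1 and Dut as Dutp.

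The study measured total RNA from the epidermis of C57BL6 mice at postnatal day 5, and its title sets vitamin D receptor and calcium sensing receptor signaling in epidermal differentiation as the question. The KO sample came from mice with both copies of Vdr, the vitamin D receptor gene, flanked by lox sites (genotype VDR fl/fl) and with Cre recombinase driven by K14, the promoter of a keratin of basal cells in epidermis and hair follicle. The CON sample came from littermates with the same VDR fl/fl alleles, for which the label names no Cre. Cells that do not express keratin 14, such as melanocytes and leukocytes, keep Vdr in this model. Back skin epidermis was separated with dispase, and RNA of 3 mice was combined into 1 pool per genotype. With 1 array per pool no difference has a replicate check, the pooling hides the spread between mice, and precision is limited by having so few arrays, so all changes below are sizes and not tests.

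Of 25697 probes, 11422 (44.4%) were detected in the KO pool and 11501 (44.8%) in the CON pool. The median signal before normalization was 158.5 in the KO pool and 153.6 in the CON pool, so raw signals ran slightly higher in KO and the log2 changes below were taken after background correction, an offset of 16 added before log2, and quantile normalization (the neqc method). The 3 Vdr probes gave log2 changes of 0.33, 0.37 and -0.23 for KO over CON. The sources used here do not give where these probes lie relative to the deleted part of the gene. They therefore do not check the genotype labels, and KO below means the pool labelled KO. Of 7 basal keratinocyte markers 6 were detected in both pools, Krt14 among them at 33165.4 in KO and 30158 in CON, while Itga6 was detected in neither. Of 6 fibroblast and dermal markers, Dcn (613.4 in KO, 646.3 in CON) and Col1a1 (173.1 in KO, 202.3 in CON) were detected in both pools, and Col1a2, Col3a1, Lum and Pdgfra in neither. None of 3 endothelial markers was detected.

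Replication begins when origins are licensed in G1: Cdc6 and Cdt1 load the ring-shaped Mcm2-7 helicase onto DNA, and cyclin E with its kinase partner then helps to start S phase. At the fork, primase and the polymerases copy the strands, the Pcna clamp and its Rfc loader hold the polymerases on DNA, the Rpa trimer covers single strands, and Fen1 and Lig1 trim and join Okazaki fragments. Ribonucleotide reductase, thymidylate synthase and thymidine kinase supply deoxynucleotides, and in epidermis these genes are used mainly by the dividing basal layer and the hair matrix. Many of them are classical targets of E2F transcription factors, which the retinoblastoma protein restrains.

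Most of the 34 detected genes had slightly higher signal in the KO pool, and few differed by much. The log2 change for KO over CON was above 0 for 27 of 34 genes, where 50.2% of all 8865 detected genes lay above 0, and below 0 for 7. The median was 0.09, against 0.00 over all detected genes, and the range was -0.19 to 1.04. A change of 1.5-fold or more was reached upward by 2 members, Ccne1 and Cdc6, where 3.10% of all detected genes passed, and downward by 0 members, where 2.28% passed. Both had been detected in the KO pool alone, a class in which 32.3% of 279 genes passed the same limit, so nothing is read from this count. At 2-fold only Ccne1 remained higher by its fitted change, where 0.451% of all detected genes passed. Its bound, described below, was only 1.74-fold. In the authors' normalized values, which still contain the background, 27 of 34 members were above 0 (50.2% of all detected genes), with 0 members 1.5-fold higher (0.541%) and 0 lower (0.169%). Of the 31 members detected in both pools, 25 were above 0 (50.4% of all such genes) and 0 were 1.5-fold higher (2.24%). A log2 change of at least 0.2, a limit chosen after the values were seen, was reached by 15 members, against 21.0% of all detected genes, while 0 members lay at -0.2 or below, against 19.7%. In a pool of bulk RNA, a different number of cycling cells and a different amount of RNA per cell cannot be told apart.

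**Figure D1:**
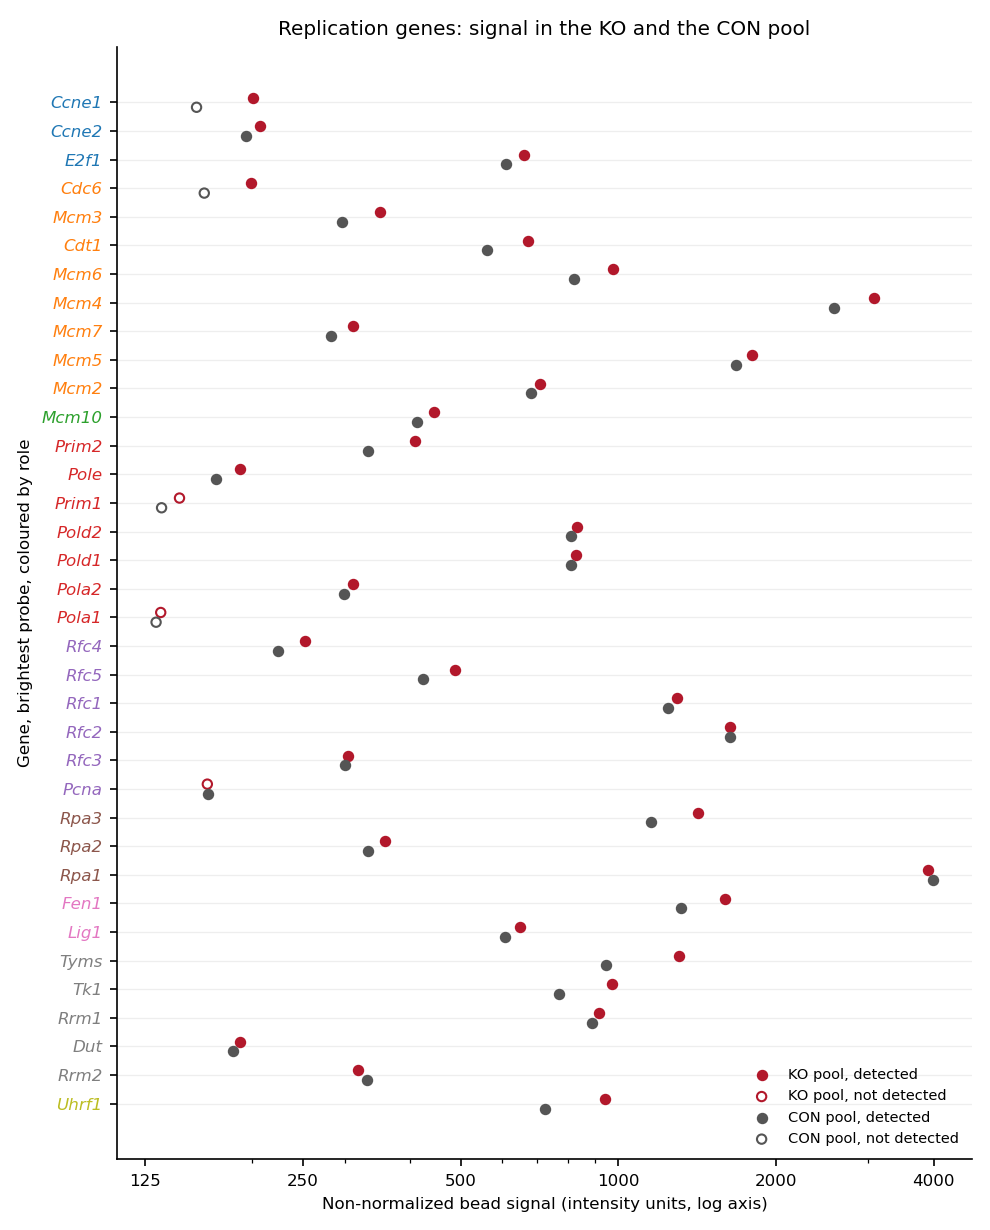
Non-normalized bead signal (intensity units, log axis) of the brightest probe of each of the 36 genes with a probe, in the KO pool (red) and the CON pool (grey), with open symbols where the probe was not detected and gene names coloured by role. Signals of the detected members ran between 164.1 and 3894.6 in KO and between 156.5 and 3987.5 in CON, and Ccne1 and Cdc6 are open in CON alone.

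Because many of these genes are known as E2F targets, the promoters of the 3 members with the largest log2 change (Ccne1, Cdc6 and Tyms) are shown, with Mcm6 added after its values were seen because it had 3 matches and 3 detected probes. The sequences are from RefSeq, build GRCm38.p6, and give the 250 bases before the annotated start, 5′ to 3′ on the gene's strand. Cdc6 lies on the plus strand at chr11:98907901-98908150. The other windows are on the minus strand, Mcm6 at chr1:128359706-128359955, Ccne1 at chr7:38107491-38107740 and Tyms at chr5:30073626-30073875. Capitals mark matches on either strand to 4 E2F site spellings, TTTGGCGC, TTTCCCGC, TTTGCCGC and TTTCGCGC, whose reverse forms are GCGCCAAA, GCGGGAAA, GCGGCAAA and GCGCGAAA.
Cdc6: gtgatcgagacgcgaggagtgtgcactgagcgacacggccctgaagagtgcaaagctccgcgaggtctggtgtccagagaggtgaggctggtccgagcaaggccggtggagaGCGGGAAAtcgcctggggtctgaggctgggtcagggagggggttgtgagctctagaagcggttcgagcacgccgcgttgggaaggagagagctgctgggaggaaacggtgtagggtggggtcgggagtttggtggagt
Mcm6: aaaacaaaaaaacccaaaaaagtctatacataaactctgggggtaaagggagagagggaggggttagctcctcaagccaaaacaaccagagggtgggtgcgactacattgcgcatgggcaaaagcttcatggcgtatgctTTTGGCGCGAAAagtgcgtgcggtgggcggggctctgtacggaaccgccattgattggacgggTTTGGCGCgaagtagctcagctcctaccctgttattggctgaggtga
Ccne1: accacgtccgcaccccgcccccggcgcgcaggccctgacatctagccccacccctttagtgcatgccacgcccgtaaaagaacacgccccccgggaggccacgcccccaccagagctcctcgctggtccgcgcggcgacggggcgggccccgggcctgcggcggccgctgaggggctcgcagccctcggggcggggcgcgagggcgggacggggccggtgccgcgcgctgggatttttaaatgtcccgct
Tyms: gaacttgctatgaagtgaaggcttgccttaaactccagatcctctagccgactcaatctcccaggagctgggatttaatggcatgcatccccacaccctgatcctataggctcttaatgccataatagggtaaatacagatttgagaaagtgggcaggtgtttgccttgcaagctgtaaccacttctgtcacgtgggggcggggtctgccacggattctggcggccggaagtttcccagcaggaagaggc
In Cdc6 the match is to TTTCCCGC on the opposite strand, with its first base 138 bases before the start. Mcm6 has 3 matches that begin 110, 106 and 47 bases before the start, of which the first and second overlap. The Ccne1 and Tyms windows hold none of these spellings.

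Across the members, 11 of 31 with a RefSeq promoter window (250 bases before to 50 after the start) held at least 1 of the 4 spellings, a share of 35.5%, against 2.61% of 27025 genes in the table and 4.54% of 7047 detected genes. Many members are known E2F targets and were listed by function, so this share describes the list and not the KO pool. Members with a match were Cdc6, Cdt1, Lig1, Mcm3, Mcm5, Mcm6, Mcm7, Pola1, Pold1, Rfc3 and Uhrf1. The 10 of them that were detected had a median log2 change of 0.20 and a range of -0.08 to 0.81, with 9 above 0. The 19 detected members without a match had a median of 0.08 and a range of -0.19 to 1.04, with 14 above 0. Among all detected genes 50.2% lay above 0. For detected genes outside the list that hold a match, that share is not given. The ranges overlapped widely. The highest values of both groups, for Cdc6 and Ccne1, came from genes detected in the KO pool alone, which favours a rise. Pcna, without a match, was detected in the CON pool alone. The pentamer CCAAT, searched on both strands as well, occurred in 58.1% of the members, 41.1% of all genes and 43.2% of detected genes. TTTGAA, the core of the cell cycle homology region of late cell cycle genes, occurred in 9.68% of the members, 20.2% of all genes and 14.4% of detected genes. For CCAAT the split ran the other way, with a median of 0.05 for the 16 detected members with a match and 0.24 for the 13 without, and for TTTGAA the medians were 0.02 for 3 members with a match and 0.09 for 26 without. A match describes letters in a window and no binding was measured. Mcm4, Prim2, Ccne2, Pole, Rfc2, Gins1 and Gins2 had no window entry.

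S phase entry is represented by both E-type cyclins and E2f1. Ccne1, which encodes cyclin E1, gave a raw signal of 200.2 in the KO pool and 156.5 in the CON pool, where its detection p was 0.0301 and so missed the limit. Against the dimmest signal of a detected probe on the neqc scale it was at least 1.74-fold higher in KO, a bound for that background model alone. The same probe was 1.29-fold higher in the authors' table, a log2 change of 0.37, and its log2 change was 0.62 with an offset of 50 in place of 16. Ccne2, the second E-type cyclin, gave 206.5 in KO and 194.2 in CON (log2 change 0.09). E2f1, an activator of the S phase gene programme, gave 660.6 in KO and 609.1 in CON (0.08). Among these genes the difference was therefore large for 1 dim probe alone.

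Helicase loading, with 8 genes measured, had 8 of 8 log2 changes above 0, where 50.2% of all detected genes lay, and a median of 0.24. Cdc6 passed the detection filter through the KO pool alone, so the filter favoured its direction. The other 7 were detected in both pools and all lay above 0, where 50.4% of genes detected in both pools lay. When each array was centred on its 75th percentile instead, Mcm2 turned to -0.00 and the other 7 stayed above 0. Cdc6, the ATPase that brings the helicase to the origin, gave 198.7 in KO and 161.9 in CON, where it was not detected (detection p 0.0125). By the same bound it was at least 1.71-fold higher in KO, again for that background model alone. Its change was 1.22-fold (log2 0.29) in the authors' normalized values, and log2 0.50 with an offset of 50. Its 3 further probes were detected in neither pool and gave log2 changes of 0.57, 0.24 and -0.07. Cdt1, its partner in loading, was detected in both pools with 670.5 in KO and 560.6 in CON (0.26).

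The 6 subunits of the Mcm2-7 ring had log2 changes between 0.01 and 0.28, with a median of 0.18. Mcm4, the brightest probe of the role, gave 3072.2 in KO and 2577.1 in CON, a log2 change of 0.22 that was nearly the same in the authors' normalized values (0.21). Mcm3 gave 349.9 in KO and 297.2 in CON (0.28). Of 1197 detected genes within 0.5 log2 units of its mean signal, 15.0% had a change at least as high. For Mcm6, 3 separate probes were detected and all were higher in KO. The brightest gave 974.8 in KO and 821.1 in CON (0.25). The next gave 930.4 in KO and 815.4 in CON (0.19), and the dimmest gave 263.8 in KO and 229.5 in CON (0.29). Mcm7 gave 311.2 in KO and 282 in CON (0.14), and Mcm5 gave 1798.2 in KO and 1676.2 in CON (0.07). Mcm2 hardly differed, with 708.1 in KO and 681.9 in CON (0.01). The ring subunits thus ran from almost no difference to 1.22-fold. Mcm10, which helps to activate the loaded helicase, gave 444.3 in KO and 411.7 in CON (0.09), and its second detected probe gave -0.04.

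The polymerases and primase showed larger differences only for Prim2 and Pole. Prim2, the large primase subunit, gave 408.9 in KO and 332 in CON, a log2 change of 0.37, and 0.23 in the authors' normalized values. Pole, the catalytic subunit of the leading strand polymerase epsilon, was dim, with 189.4 in KO and 170.2 in CON (0.35, and 0.12 in the authors' values). Of detected genes of like signal, 7.78% of 1196 were at least as far up for Prim2 and 18.8% of 1477 for Pole. The subunits of polymerase delta, which copies the lagging strand, had nearly equal signals. Pold1 gave 828.9 in KO and 812.1 in CON (0.01), and Pold2 gave 835 in KO and 812 in CON (0.02). Pola2, the accessory subunit of polymerase alpha, gave 311.3 in KO and 299.2 in CON (-0.01). Over the 5 detected members of this role the median was 0.02. The undetected probes gave 133.7 in KO and 131 in CON for Pola1, and 145.2 in KO and 134.2 in CON for Prim1, so no change can be read for either.

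In the clamp and its loader the members split by subunit. Pcna, the sliding clamp, was at the edge of detection, with 164.1 in KO (detection p 0.0288) and 164.3 in CON (0.00627). It was not detected in KO, and the log2 change of -0.19 corresponds to a bound of only 1.01-fold lower, so no difference can be read from its single probe. Rfc4 gave 252.4 in KO and 224 in CON (0.24), and Rfc5 gave 487 in KO and 423.3 in CON (0.22), both small subunits of the clamp loader. Rfc1, the large subunit, gave 1295.7 in KO and 1243.7 in CON (0.02). Rfc2 gave 1629.2 in KO and 1633.5 in CON (-0.05), and Rfc3 gave 304.2 in KO and 300.9 in CON (-0.08). The loader thus held 3 members above 0 and 2 below.

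The single-strand binding trimer divided in a similar way. Rpa3, the smallest subunit, gave 1417.7 in KO and 1152.6 in CON, a log2 change of 0.28. Rpa2 gave 358.2 in KO and 332 in CON (0.08). Rpa1, the large DNA-binding subunit and the brightest probe of all members, gave 3894.6 in KO and 3987.5 in CON (-0.09). Of the genes that finish Okazaki fragments, Fen1, the flap nuclease, gave 1600 in KO and 1316 in CON (0.27), while Lig1, the ligase, gave 649.5 in KO and 607.3 in CON (0.06) with a second probe at 0.25. Uhrf1, which brings the maintenance methyltransferase to newly copied DNA, gave 943.4 in KO and 722.7 in CON, a log2 change of 0.41. Of 1288 detected genes within 0.5 log2 units of its mean signal, 4.27% had a change at least as high. Dnmt1, that methyltransferase, is no member and was picked after its values were seen. It gave 590.8 in KO and 568.7 in CON (0.01).

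**Figure D2:**
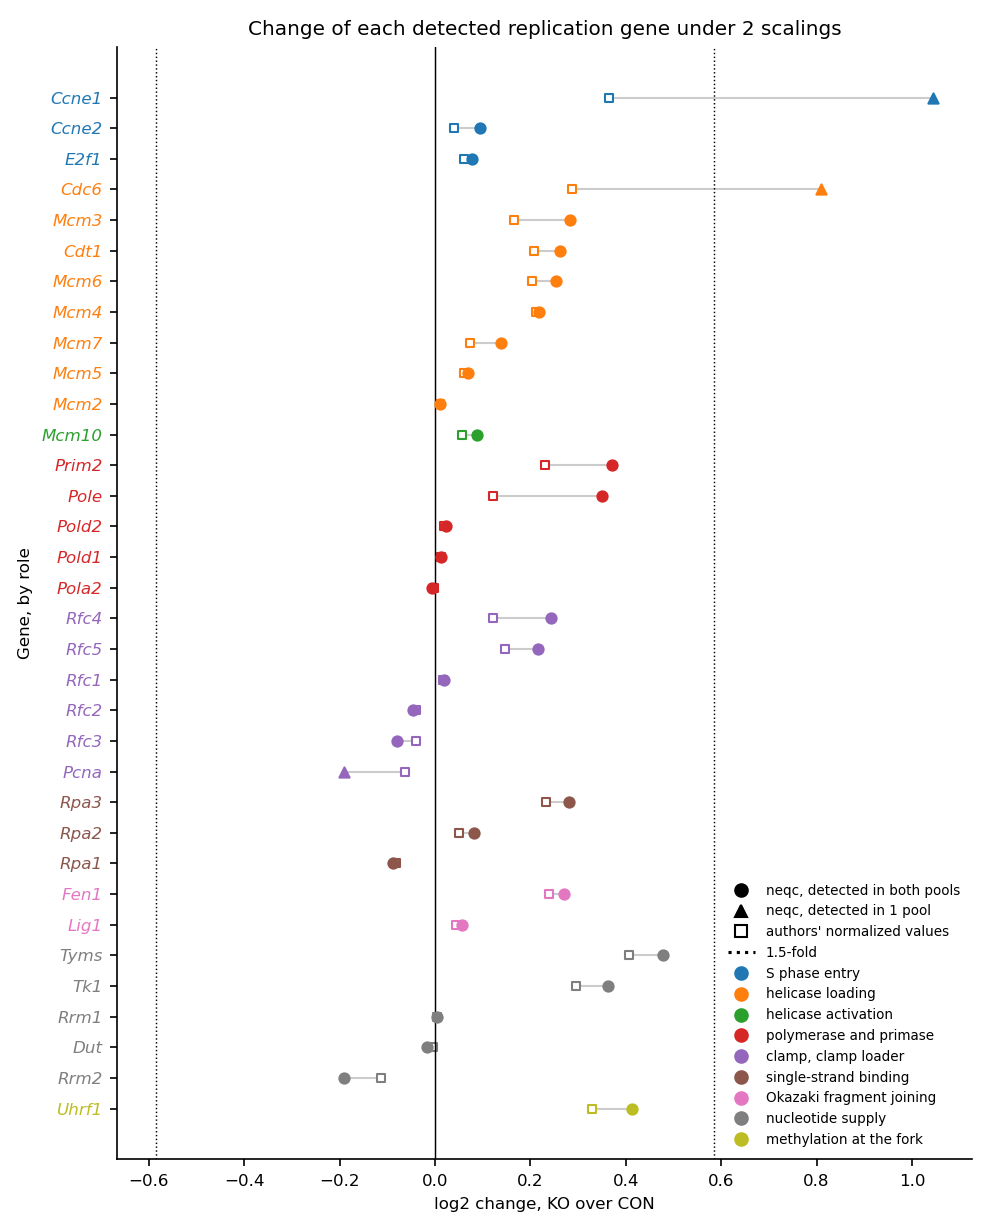
Log2 change, KO over CON, of the 34 detected genes by role, after background correction and quantile normalization (neqc, filled) and in the authors' normalized values (open squares), with triangles for genes detected in 1 pool and dotted lines at 1.5-fold. Most points lie right of 0, Ccne1 and Cdc6 pass 1.5-fold under neqc alone, and Rrm2 and Pcna lie farthest left at -0.19.

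Nucleotide supply held the widest spread among well-detected genes. Tyms, thymidylate synthase, which makes dTMP from dUMP, gave 1302.9 in KO and 945.9 in CON with its brightest probe. That is a log2 change of 0.48, and 0.41 in the authors' normalized values. Of 1221 detected genes near its mean signal 2.29% were at least as far up. A second, dimmer Tyms probe pointed the other way, with 202.9 in KO and 247.9 in CON (-0.78), and the mean over both detected probes was -0.15. The direction for Tyms is therefore not settled by these arrays. Tk1, cytosolic thymidine kinase of the salvage route, gave 973.2 in KO and 769.6 in CON (0.36), where 6.13% of 1257 genes of like signal were at least as far up. Its second probe gave 0.43 and the dimmest, close to the detection limit, -0.06.

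The member subunits of ribonucleotide reductase, which makes deoxynucleotides from ribonucleotides, were nearly equal or lower in KO. Rrm1, the large subunit, gave 917.5 in KO and 892 in CON (0.00). Rrm2, the small subunit whose level normally follows S phase, gave 317.7 in KO and 330.4 in CON (-0.19), and its second detected probe gave -0.13. Rrm2b, an alternative small subunit outside the member list picked after its values were seen, gave 347.4 in KO and 287.6 in CON (0.35 as log2 change, 0.20 in the authors' values). Dut, which removes dUTP, gave 189.3 in KO and 183.9 in CON (-0.02).

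**Figure D3:**
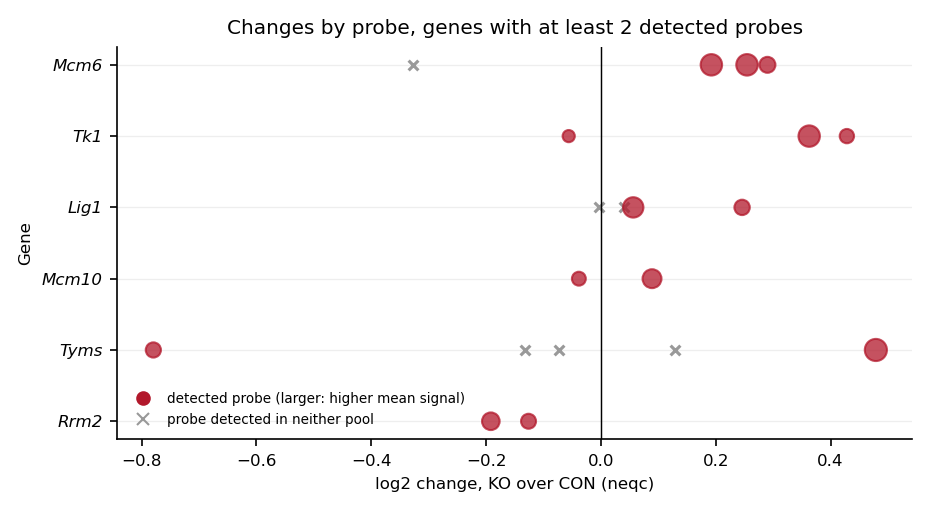
Log2 change, KO over CON, of each probe for the 6 genes with at least 2 detected probes, where larger discs stand for a higher mean signal and crosses for probes detected in neither pool. The 3 detected Mcm6 probes lie together between 0.19 and 0.29, while the Tyms probes lie at 0.48 and -0.78.

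Probes of the same gene thus did not always point the same way. Counting each of the 42 detected member probes as a unit, 31 had a log2 change above 0 and 11 below, where 48.6% of 11900 detected probes lay above 0. At least 2 detected probes were available for 6 members, and in 3 of them (Mcm6, Lig1 and Rrm2) the probes shared 1 direction, while in Tyms, Tk1 and Mcm10 they did not. The bright members gave the same picture as the whole group: of 20 whose mean log2 signal was 8 or more, 18 lay above 0 with a median of 0.08, where 50.2% of 5106 bright genes lay above 0. Rpa1 and Rfc2 were the exceptions. Among the bright members above 0, Mcm2, Rrm1, Pold1 and Pold2 turned below 0 when the arrays were centred on the 75th percentile. None of the 20 passed 1.5-fold, where 1.29% of all bright genes did.

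Genes of the same processes outside the member list were examined in the same way, from 92 names chosen by function, of which Claspin and And1 are second names of Clspn and Wdhd1. Of these names 82 had a probe and 61 were detected. Of the detected genes 3 rose by 1.5-fold or more (background 3.10%) and 1 had a fitted fall of that size (background 2.28%). Above 0 were 35 of 61 (background 50.2%), with a median of 0.02. A log2 change of at least 0.2 was reached by 21 (background 21.0%) and of -0.2 or below by 7 (background 19.7%).

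**Figure D4:**
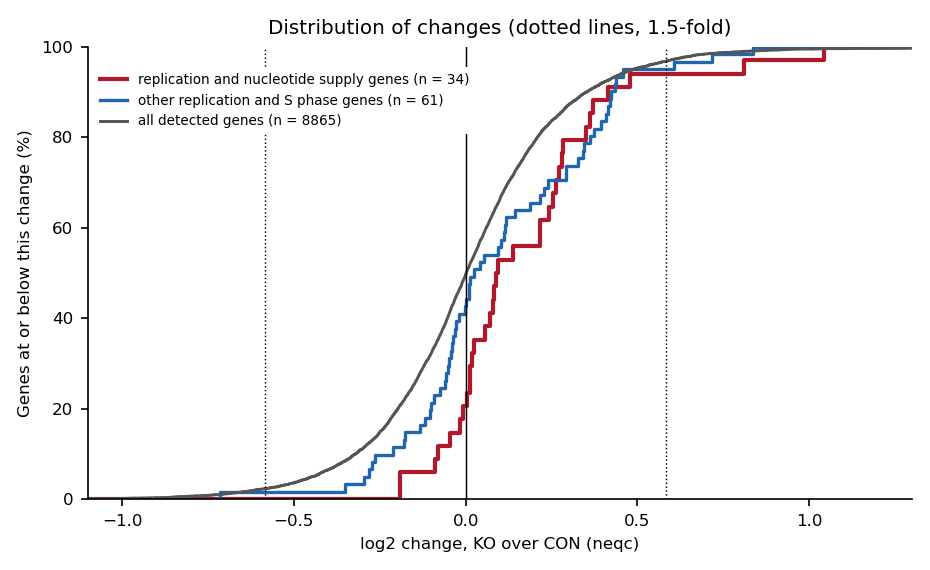
Cumulative share (%) of genes at or below each log2 change, KO over CON, for the 34 detected replication and nucleotide supply genes (red), the 61 other detected replication and S phase genes (blue) and all 8865 detected genes (grey), with dotted lines at 1.5-fold. The red curve lies right of the grey one below its highest value of 1.04, with medians of 0.09 and 0.00, and runs close to it near 0.48.

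Samhd1, which breaks down deoxynucleotides, rose most, with 301.7 in KO and 215.7 in CON (0.84, and 0.42 in the authors' values). Asf1a, a histone chaperone, gave 219.5 in KO and 176.6 in CON (0.72), and Pole4, a small subunit of polymerase epsilon, gave 209.3 in KO and 174.8 in CON (0.61). These 3 probes were dim, and in the authors' normalized values none passed 1.5-fold. Gins3, of the active helicase, gave 153.5 in KO, where it was not detected, and 168.7 in CON, a log2 change of -0.71 whose bound was only 1.12-fold. Smaller falls of -0.2 or below, named after their values were seen, were Cad (-0.35), Pold4 (-0.30), Asf1b (-0.26) and Cdc45 (-0.21). Dck (-0.28) was not detected in KO, and Cdkn1a (-0.27) is described below. The further genes among the 10 with the largest absolute log2 change were all higher in KO and below 1.5-fold. Dtymk, the kinase that makes dTDP, gave 976.8 in KO and 729.6 in CON (0.46). Top2a, a topoisomerase of dividing cells, gave 1034.7 in KO and 778.2 in CON (0.44).

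Ccnd2, a G1 cyclin, gave 3500.1 in KO and 2530.9 in CON (0.44). Dctpp1, which breaks down dCTP and its modified forms, gave 785 in KO and 602 in CON (0.42), and E2f5, a repressive E2F, gave 270.9 in KO and 225.4 in CON (0.42). Timeless, of the fork protection complex, gave 302.3 in KO and 247.5 in CON (0.41). Its neighbours in that complex were picked after their values were seen: Tipin gave 1434.6 in KO and 1158.3 in CON (0.29), and the checkpoint mediator Clspn gave 558.6 in KO and 440.2 in CON (0.39), with its next detected probes at 0.38 and 0.16. The other detected genes of the fork protection list were Pclaf, a Pcna partner, at 0.14, and Chtf18, of an alternative clamp loader, at -0.06.

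Regulators of S phase entry were mixed, and the following were likewise chosen after their values were seen. Dbf4, the activator of Cdc7 kinase, gave 439.1 in KO and 356.8 in CON (0.36), whereas Cdc7 itself gave 698 in KO and 675.6 in CON (-0.00). Cdkn1a, the p21 inhibitor of cyclin-dependent kinases, was lower in KO with all 3 detected probes. The brightest gave 7018.5 in KO and 8102.6 in CON (-0.27), and the others -0.46 and -0.25. Cdkn2b, a further inhibitor, went the other way, with 673.6 in KO and 528.6 in CON (0.37). The brightest probes of Cdkn1b, Cdkn1c and Cdkn2c gave -0.13, -0.04 and -0.07, and the second detected Cdkn2c probe gave -0.72. Cdk2, the partner of cyclin E, gave 1914.9 in KO and 1548.6 in CON with its brightest probe (0.29), but -0.17, -0.34 and -0.22 with the other 3. Its direction therefore depended on the probe.

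Markers of other cells and phases were read beside these values. The background for the counts above 0 that follow is again 50.2% of all detected genes. All 9 detected mitosis genes had log2 changes above 0, with a median of 0.22, and their summed normalized signal was 5218 in KO and 4417 in CON. Nusap1, a spindle protein, gave 436.2 in KO and 266.2 in CON (1.05), and Ccnb1, cyclin B1, gave 520 in KO and 343 in CON (0.78). Basal keratinocyte markers summed to 92098 in KO and 91786 in CON, with 4 of 6 above 0. Suprabasal and cornified markers summed to 88204 in KO and 96012 in CON, with 1 of 5 above 0. Both sums mostly follow very bright probes, but the largest suprabasal falls were in the less bright Krt77 and Ivl. Krt77 gave 4163.3 in KO and 7557.9 in CON (-0.94), and Ivl gave 5608.5 in KO and 6967.8 in CON (-0.38). Krt1, Lor and Krt10 gave -0.12, -0.05 and 0.01. Before normalization, Krt14 gave 33165.4 and Krt10 33073.8 in KO, where the highest signal on the array was 35763.7. Hair matrix and shaft markers summed to 11662 in KO and 10570 in CON, with 2 of 7 above 0. That sum rose through the bright Krt86 (0.70) and Krt33a (0.30), whereas 5 markers lay below 0, with Krt35 at -0.84 and Msx2 at -0.46. T cell markers summed to 3864 in KO and 3355 in CON, with 3 of 3 above 0. Fibroblast markers summed to 526 in KO and 618 in CON, with 0 of 2 detected markers above 0. Melanocyte markers summed to 2549 in KO and 2853 in CON (0 of 4 above 0), and sebocyte markers to 586 and 707 (1 of 3). Inner root sheath markers summed to 21648 in KO and 23644.5 in CON (1 of 3). Langerhans and other leukocyte markers gave 8830 in KO and 8841 in CON (1 of 2), and the 1 detected red blood cell marker 413 and 666. Skeletal muscle markers summed to 524 in KO and 366 in CON, with 4 of 4 above 0, of which Acta1 and Myh8 were detected in KO alone and Myl1 and Mylpf in both pools. How far these cell types and phases contribute to the replication gene values was not tested.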

How the data were processed

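Per the labels' protocols, total RNA was labelled with biotin, detected with Cy3-streptavidin and read on an Illumina bead array. The submitters' processing notes name GenomeStudio 2011.1. Deposited by the authors were a non-normalized mean bead intensity and a detection p-value for each of 25697 probes, and a normalized intensity table. The sorted normalized signals of both arrays agree within 0.3, the pattern of quantile normalization, and the series matrix holds the same values with 0 differing, on a linear scale without centring.

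Non-normalized intensities were passed through neqc (limma 3.58.1, R 4.3.3): normal-exponential background correction with controls inferred from the detection p-values, an offset of 16, quantile normalization and log2. Later steps used Python 3.11.15 with numpy 2.4.6, pandas 2.3.3 and matplotlib 3.10.9. Background correction widens and the offset shrinks the change of dim probes. Detection required a p-value under 0.01 in at least 1 pool, and a change meant 1.5-fold. A gene undetected in 1 pool has its fold as a bound, against its own signal there or, if higher, the dimmest signal of any detected probe on that array (log2 5.41 in KO, 5.38 in CON). With 1 pool per genotype no SD or p-value between groups was computed. Names came from RefSeq (GRCm38.p6) for 25375 probes, and 322 kept the file's name. The brightest probe stood for a gene. The steps were tested on simulated data with 200 changed genes.

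The members and gene lists were chosen with earlier results of these data known. Every member is named by role. Among the other replication genes, those past 1.5-fold and the 10 with the largest absolute log2 change are named, and any further gene is marked as chosen after its values were seen. Marker genes named are examples of their lists. The alternatives were the authors' values, no background correction, centring on the median or the 75th percentile, an offset of 50, other detection and brightness filters, the mean over probes, bounds and 2-fold.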

Additional observations from a re-analysis of the deposited data

How the results depend on the processing

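Of 11 settings besides 2-fold, the both-pools filter kept 31 of the 34 detected members and the brightness filter 20. In the settings that gave it a value, the log2 change was always positive for 22 members and always negative for 6 (Pcna, Rrm2, Dut, Rfc2, Rfc3 and Rpa1). The detection and brightness filters only choose genes and leave each change as it was. Bounds alter only genes detected in 1 pool, and the mean over probes only genes with at least 2 detected probes. For most members, therefore, only the scaling, background and offset settings could turn the sign. The sign varied for Mcm2, Rrm1, Tyms, Pola2, Pold1 and Pold2, all but Tyms with changes near 0. The count of members above 0 was 24 of 34 after centring on the 75th percentile and 25 after centring on the median. It was 26 with the mean over detected probes and 27 in the authors' values, where 50.2% of all detected genes lay above 0. For the other settings that share is not given. The median over all detected genes was -0.008 with centring on the 75th percentile and 0.005 with centring on the median. The members' median ranged from 0.06 to 0.11. The 2 members 1.5-fold higher became 0 in the authors' values, without background correction, among genes detected in both pools and among bright genes (mean log2 signal 8 or more), and 1 with an offset of 50 or at 2-fold. At a log2 change of at least 0.2, added after seeing the data, they became 15, against 21.0% of all detected genes. The count at 2-fold took the fitted change of Ccne1, whose bound was 1.74-fold. For the other replication and S phase genes, the 3 raised became 0 in the authors' values, without background correction, at 2-fold and among bright genes, and 1 with an offset of 50. Their 1 lowered gene became 0 under each of those settings, with both pools required and with bounds. Their median of 0.025 became 0.016 with the 75th percentile, 0.041 with both pools required, 0.011 at a detection p under 0.05, 0.0025 without a filter and 0.052 with the mean over probes. Dim probes limit these counts, since background correction sets their size. No paired analysis was possible because each genotype was 1 pool with no matched number, and for the same reason no replicate could be left out.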
